A study of Mus musculus with 8 samples.

Results

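Ion channels and receptors that set the tone of the arterial wall were followed across single-cell libraries of smooth muscle cells sorted from the mouse ascending aorta. The group was a list of 8 genes given by name and matched to the gene identifier columns of the deposited tables without their version numbers. It holds the potassium channel genes Kcnk3, Kcnmb1, Kcnj8 and Abcc9, the calcium channel gene Cacna1c, the receptor genes Adra1b and Ednra, and the gap junction gene Gja1. Of these 8 genes, 7 had a column among the 11447 gene identifiers in all, and Ednra, the endothelin receptor of type A, was not analysed here.

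The study compared KO mice, which lack the TGF-beta receptor gene Tgfbr2 in smooth muscle and are also deficient in Apoe, with Apoe mice, which are deficient in Apoe alone. Each genotype was studied on the diet labelled ND and after 1, 2 or 4 months of high fat diet (1M, 2M and 4M). Cells were released from the ascending aorta, sorted for green fluorescent protein, and made into droplet libraries on the 10x Genomics Chromium system. Each combination of genotype and diet gave 1 library, and the labels give neither the number of animals behind a library, nor their age, nor the driver of the smooth muscle knockout. Loss of apolipoprotein E raises plasma cholesterol and was shared by every library, so no library came from wild-type mice.

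Arterial smooth muscle contracts when calcium enters through voltage-gated L-type channels, and potassium channels oppose this by holding the membrane at a negative voltage. Receptors for noradrenaline and endothelin on the same cells raise calcium and cause constriction. Gap junctions made of connexins pass current and small molecules from cell to cell, so that the wall responds as a unit.

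Levels are counts of unique molecular identifiers (UMIs, single captured transcripts) of a gene per 1000000 UMIs of its library, called CPM, with exact Poisson 95% intervals that cover counting error only. Shares are the percent of cells with at least 1 UMI of the gene. The 8 libraries held 1127, 1302, 2253 and 1577 cells in KO on ND, 1M, 2M and 4M, and 1415, 1488, 2659 and 1235 cells in Apoe, 13056 in all. Total UMIs lay between 9407155 and 19719335 a library, and median UMIs per cell between 6966 (Apoe 4M) and 10988 (KO 4M). The tables hold a gene in a library only where it was seen in about 5% of its cells or more, since the lowest share present was at most 5.07% in every library. Below this a gene is listed at 0, and no level or fold is given against such a listing. Such a listing is not proof of low expression, because the mitochondrial transcript mt-Co3 had values in 3 of the 8 libraries.

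The library KO 4M stood apart from the other 7. Its 10 fixed smooth muscle markers summed to 1754 CPM, against 26326 in Apoe 4M and 37110 to 50348 in the other 6 libraries. Myh11, the smooth muscle myosin heavy chain, had levels of 2606, 2337, 1744 and 74.4 CPM in the KO libraries, in order of time, against 2244, 2035, 1759 and 1639 in Apoe. Des was the marker listed at 0 in KO 4M. All 10 chondrocyte markers were listed in KO 4M, with a sum of 32134 CPM, against 4384 in Apoe 4M. The fixed fibroblast markers summed to 410 to 11971 CPM in KO and 562 to 4190 in Apoe, at most 1 of 8 endothelial markers was listed in a library, and 0 of 8 lymphocyte markers were listed in any. Smooth muscle markers were thus abundant in 7 libraries, and in KO 4M the levels below go with markers of another cell type, whose part in them was not tested. At least 3 macrophage markers were seen in 18 cells of KO 1M and 3 cells of KO 4M, and in 0 cells of the other libraries. Without them, 0 of 49 member levels left their interval. A pair of libraries shared 0 to 9 cell barcodes. The KO label could not be checked. Tgfbr2 had values in the Apoe libraries alone, at 39.2 to 54.6 CPM. The names of the deposited tables mark Apoe and Tgfbr2 as left out, yet the table of Apoe over time holds these Tgfbr2 values. The table of KO over time bears the same mark and holds none. Whether Tgfbr2 was removed there or fell below the share at which a gene is listed was not tested.

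Across the list, 3 members had values in all 8 libraries (Kcnj8, Abcc9 and Gja1), and 4 members had none in KO 4M (Kcnk3, Kcnmb1, Cacna1c and Adra1b). Kcnk3 and Adra1b stood 2.12 to 6.89 times as high in KO as in Apoe on every diet where both genotypes had values. Gja1 stood higher in KO on all 4 diets. Kcnmb1 and Cacna1c stood lower in KO on ND, 1M and 2M, and Kcnj8 and Abcc9 went to levels in KO 4M far below those of any other library. With 1 library a group these are descriptions of libraries, and the tests over diets and months follow them.

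**Figure D1:**
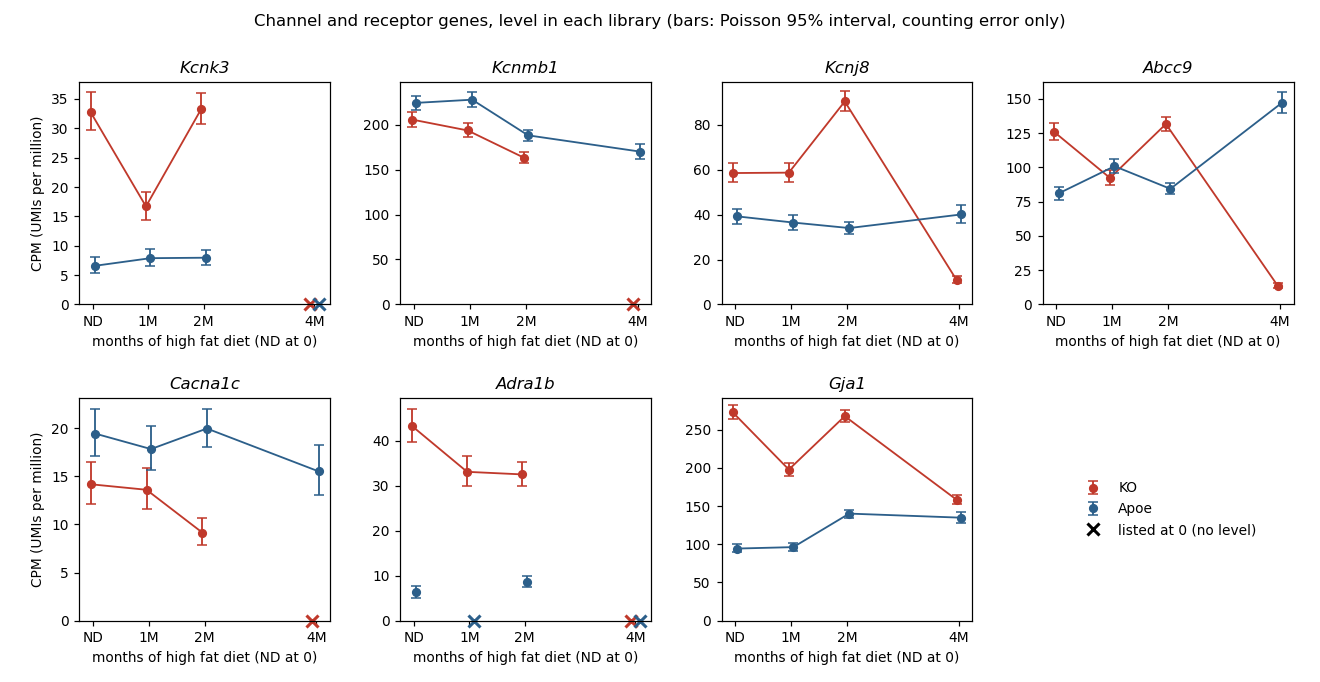
Level of each member in each library, in CPM, against months of high fat diet with ND at 0. Red points are KO, blue points are Apoe, bars are exact Poisson 95% intervals for counting error only, and crosses mark a listing at 0, which is no level; Kcnj8 and Abcc9 in KO stand at 10.9 and 13.7 on 4M.

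Kcnk3 encodes a background potassium channel that is open at rest and closed by acid. It stood at 32.7, 16.7 and 33.3 CPM in KO on ND, 1M and 2M, and at 6.59, 7.88 and 7.96 in Apoe on the same diets. A Kcnk3 UMI was seen in 26.1%, 12.7% and 20.02% of KO cells and in 5.16%, 6.52% and 5.30% of Apoe cells. The 3 KO levels lay above the 3 Apoe levels without overlap of their intervals, while the 3 Apoe levels did not differ beyond theirs. The ratio of KO to Apoe was 4.97 on ND, 2.12 on 1M and 4.18 on 2M. The smaller ratio on 1M went with the lower KO 1M level, since Apoe hardly moved. Kcnk3 had values in neither 4M library, and its Apoe shares lay just above the level at which a gene is listed at 0. With each cell thinned to 2900 UMIs, to equalise depth, the shares were 10.5%, 5.68% and 8.34% in KO, against 1.70%, 2.22% and 2.14% in Apoe.

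Kcnmb1 encodes the smooth muscle beta subunit of the large-conductance calcium-activated potassium channel, which tunes the channel to local calcium signals. It was seen in most cells of every library where it was listed. Its level was 206, 193 and 163 CPM in KO from ND to 2M, and 224, 228, 188 and 170.0 in Apoe from ND to 4M. The KO level lay below the Apoe level on each of the 3 shared diets, with differences of log2(CPM + 1) of -0.12, -0.23 and -0.20, and the intervals of each pair were apart. Shares on these diets were 83.4%, 73.6% and 64.3% in KO and 83.1%, 82.3% and 71.0% in Apoe. After thinning they were 44.1%, 43.2% and 36.5% against 44.8%, 47.0% and 41.9%, with intervals that overlapped on ND and 1M. The library factors described under Gja1, 1.01 in KO ND and 1.05 in Apoe ND, would narrow the ND difference. In both genotypes the 2M level was the lowest of those up to 2 months. In KO 4M the gene was listed at 0, after a share of 64.3% of cells in KO 2M, while in Apoe 4M it was seen in 61.4% of cells. Kcnma1, the pore subunit of the same channel, ran the other way at 4M, with 36.0, 34.6, 36.5 and 137 CPM in KO and 49.6, 54.2, 44.6 and 58.3 in Apoe. Kcnma1 was picked out for its tie to Kcnmb1 after its values were seen, and the slope given by limma for KO had an adjusted p of 0.0542.

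Kcnj8 and Abcc9 encode the pore and the sulfonylurea receptor subunit of the vascular ATP-sensitive potassium channel, which opens when cellular energy falls and relaxes the vessel. The genes are neighbours on the minus strand of chromosome 6 (Kcnj8 at chr6:142564837-142571614 and Abcc9 at chr6:142587862-142702315, GRCm38), with 16247 bases between them. Kcnj8 stood at 58.5, 58.7, 90.4 and 10.9 CPM in KO, and at 39.2, 36.5, 34.0 and 40.1 in Apoe. The 4 Apoe levels did not differ beyond their intervals, whereas KO 2M was the highest library and KO 4M the lowest. Abcc9 stood at 126, 92.3, 132 and 13.7 CPM in KO, and at 81.0, 101, 84.3 and 147 in Apoe. Apoe 4M was thus the highest Abcc9 library and KO 4M the lowest.

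Kcnj8 was 1.49, 1.61 and 2.66 times as high in KO as in Apoe on ND, 1M and 2M, and on 4M it was 3.67-fold lower in KO. Abcc9 was 1.55 times as high in KO on ND and 1.56 times on 2M, did not differ beyond counting error on 1M (ratio 0.915), and was 10.8-fold lower in KO on 4M. Between 2 and 4 months in KO, the later level of Kcnj8 was 8.27-fold lower and that of Abcc9 9.63-fold lower, as values of single libraries with no replicate check. Over the same step 16.1% of the genes listed in both KO libraries were lower by at least 1 on the log2 scale and 7.26% higher. In Apoe, Abcc9 stood 1.75 times as high on 4M as on 2M, and Kcnj8 1.18 times. The share of cells with a UMI in KO 4M was 7.86% for Kcnj8 and 9.38% for Abcc9, against 22.7% and 55.5% in Apoe 4M. Fewer cells with the transcripts and fewer transcripts per cell cannot be told apart from the level alone. The ratio of Abcc9 UMIs to Kcnj8 UMIs was 2.15, 1.57, 1.46 and 1.25 in KO from ND to 4M, and 2.06, 2.76, 2.48 and 3.67 in Apoe. The ratio compares libraries and not the abundance of the 2 subunits, since transcripts of the genes may be captured unequally.

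In KO 4M, an Abcc9 UMI was seen in 37.9% of the 124 cells with a Kcnj8 UMI (exact 95% interval 29.3% to 47.1%) and in 6.95% of the 1453 cells without one (5.70% to 8.38%). After thinning the shares were 20% of 50 cells and 3.54% of 1527 cells. In the other 7 libraries the shares were closer to each other, from 49.3% to 74.7% with a Kcnj8 UMI and from 40.6% to 66.2% without. In KO ND, for example, 74.7% of 447 cells with a Kcnj8 UMI and 66.2% of 680 cells without one had an Abcc9 UMI, and after thinning these shares were 28.9% and 31.8%. The gap between the shares was widest in KO 4M, where few cells had either transcript, both as deposited and after thinning.

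The promoters of this pair are shown because the genes adjoin and both stood lowest in KO 4M, and that of Gja1 because it stood higher in KO on all 4 diets. They are stretches of up to 250 bases before the first annotated start site, read 5′ to 3′ on the strand of the gene from the RefSeq table for GRCm38.p6. The windows are chr6:142571615-142571864 (minus strand) for Kcnj8, chr6:142702316-142702524 (minus strand) for Abcc9 and chr10:56377050-56377299 (plus strand) for Gja1. Capitals mark each CAGAC or its reverse complement GTCTG, the core motif of SMAD proteins, which carry the TGF-beta signal to DNA.
Kcnj8: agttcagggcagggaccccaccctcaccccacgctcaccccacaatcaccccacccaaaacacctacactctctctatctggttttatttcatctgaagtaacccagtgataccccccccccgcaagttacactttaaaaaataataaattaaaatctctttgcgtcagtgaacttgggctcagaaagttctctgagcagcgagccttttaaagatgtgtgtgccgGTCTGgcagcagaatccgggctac
Abcc9: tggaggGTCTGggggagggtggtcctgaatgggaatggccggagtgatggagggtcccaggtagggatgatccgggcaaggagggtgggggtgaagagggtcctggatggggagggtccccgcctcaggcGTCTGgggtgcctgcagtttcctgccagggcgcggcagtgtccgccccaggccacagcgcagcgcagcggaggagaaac
Gja1: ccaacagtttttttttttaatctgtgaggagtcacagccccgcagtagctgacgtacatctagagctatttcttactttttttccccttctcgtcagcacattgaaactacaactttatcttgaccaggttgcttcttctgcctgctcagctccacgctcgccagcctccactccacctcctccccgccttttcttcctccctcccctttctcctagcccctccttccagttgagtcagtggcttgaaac
Kcnj8 held 1 match, Abcc9 held 2 and Gja1 held 0. Of 32851 promoters of 250 bases in the table, 42.2% held the motif on one strand or the other. Over the list, 10 start sites of 7 genes were in the table, Ednra among them, and 5 of the 10 held the motif. None of the 10 held a CArG box, the motif of serum response factor in contractile genes, which 1.47% of all promoters held. A match is a run of letters and does not show that a factor binds there.

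Cacna1c encodes the pore of the L-type calcium channel, the main route of calcium entry in arterial smooth muscle. It stood at 14.2, 13.6 and 9.15 CPM in KO on ND, 1M and 2M, and at 19.5, 17.8, 19.98 and 15.5 in Apoe from ND to 4M. All KO levels lay below all Apoe levels, though only the KO 2M level lay apart from its neighbour in that order. Within a diet the intervals were apart on ND and 2M and overlapped on 1M, and the 2M level was 2.18-fold lower in KO. Shares were 13.8%, 11.2% and 7.06% of KO cells and 17.1%, 15.2%, 13.5% and 11.1% of Apoe cells. These shares also depend on depth. With each cell thinned to 2900 UMIs they were 3.90%, 3.76% and 2.49% in KO, and 6.50%, 4.91%, 5.90% and 5.26% in Apoe. In KO 4M the gene was listed at 0. Cacna1c (chr6:118587240-119196418, minus strand) overlaps Dcp1b on the other strand, which also has a column, and the sources used here do not say whether counting used the strand. Its level is uncertain to that extent.

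Adra1b encodes an alpha adrenoceptor, which binds noradrenaline and adrenaline and couples to calcium release. It stood at 43.3, 33.1 and 32.5 CPM in KO on ND, 1M and 2M. In Apoe it stood at 6.29 on ND and 8.62 on 2M, and was listed at 0 on 1M. All 3 KO levels lay above both Apoe levels, with KO above Apoe by a ratio of 6.89 on ND and 3.77 on 2M. A UMI was seen in 34.0%, 24.5% and 21.3% of KO cells and in 5.37% and 5.94% of Apoe cells on ND and 2M. Neither 4M library had values of the gene, so the highest KO to Apoe ratio of the list could not be followed to 4 months. Among the other receptors fixed for comparison, Npy1r, a receptor for neuropeptide Y, stood at 137, 177, 105 CPM in KO from ND to 2M and was listed at 0 in KO 4M, against 70.6, 90.0, 67.5 and 49.0 in Apoe.

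Gja1 encodes the most widespread connexin of gap junctions. In order of time it stood at 273, 198, 268 and 158 CPM in KO, against 94.4, 96.2, 140.1 and 135 in Apoe. All 4 KO levels lay above all 4 Apoe levels, and the intervals of KO 4M and the nearest Apoe library, Apoe 2M, were apart. The ratio of KO to Apoe was 2.89 on ND, 2.06 on 1M, 1.91 on 2M and 1.17 on 4M. Both sides contributed to the shrinking ratio in CPM, with Apoe 1.46 times as high on 2M as on 1M and KO 2M 1.69 times as high as KO 4M. A library factor from the trimmed mean over the 7994 genes listed in all libraries was 0.845 in KO 4M. It was 1.01 to 1.05 in the other libraries. Divided by these factors, the fall in KO would be smaller and the 4M ratio larger. A Gja1 UMI was seen in 81.4%, 66.2%, 73.1% and 61.4% of KO cells and in 47.1%, 47.3%, 50.5% and 46.2% of Apoe cells. After thinning to equal depth the shares were 47.6%, 36.3%, 47.1% and 31.6% in KO, and 21.6%, 21.5%, 29.3% and 26.7% in Apoe. Of the 3 members with values in both 4M libraries, Gja1 differed least between them. Gjc1, another connexin of the vessel wall, had the opposite order, with 35.4, 41.9, 39.2 and 9.29 CPM in KO and 63.6, 53.9, 58.7 and 35.0 in Apoe.

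Counted by diet, members listed in both genotypes and at least 1 apart on the log2(CPM + 1) scale numbered 3 higher and 0 lower in KO of 7 on ND (Kcnk3 2.15, Adra1b 2.60 and Gja1 1.52). The same difference was reached upward by 0.749% and downward by 1.37% of the 9608 genes listed in both ND libraries. On 1M it was 1 member higher of 6 (Gja1 1.03, with Kcnk3 at 0.99) and 0 lower, against 0.760% and 0.770% of all genes. On 2M it was 3 higher (Kcnk3 1.94, Adra1b 1.80 and Kcnj8 1.38) and 1 lower (Cacna1c -1.05) of 7, with Gja1 at 0.93, against 1.16% and 2.17%. On 4M it was 0 higher and 2 lower of 3 (Kcnj8 -1.78 and Abcc9 -3.34), against 6.59% and 17.0%. The median difference of the members was 0.63, 0.27, 0.93 and -1.78 from ND to 4M, and that of all genes listed in both was -0.05, 0.02, -0.02 and -0.24. The member medians rest on 7, 6, 7 and 3 genes, and that of 4M is the value of Kcnj8. Kcnk3, Kcnmb1, Cacna1c and Adra1b have no difference on 4M, so the medians do not follow the same genes over time.

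**Figure D2:**
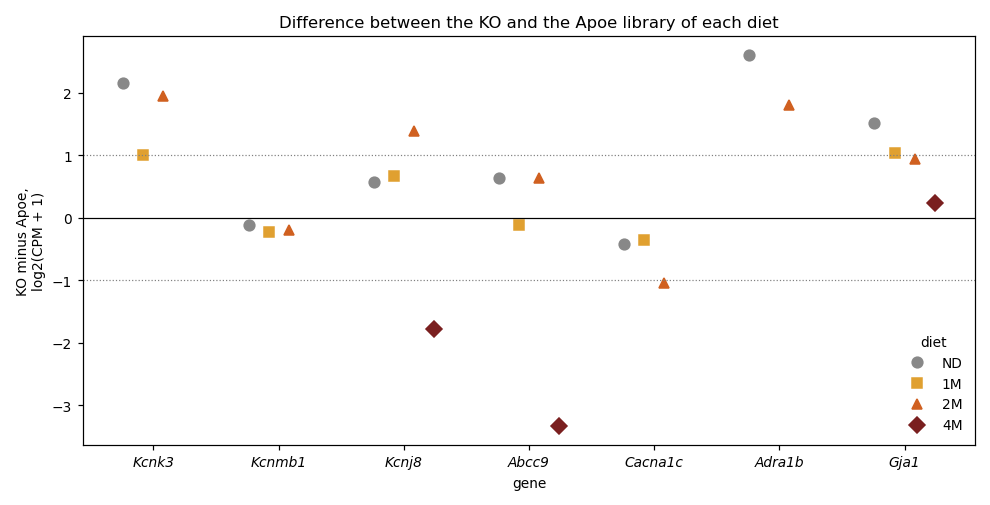
Difference between the KO and the Apoe library of each diet for each member, as KO minus Apoe on the log2(CPM + 1) scale, with 1 symbol a diet and dotted lines at differences of 1. Points above 0 are higher in KO; the lowest is Abcc9 on 4M at -3.34, and no point is drawn where a library is listed at 0.

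The genotype effect over all diets was tested on the mean log2 value per library with limma, with diet as a factor and 3 residual degrees of freedom. A listing at 0 entered these fits as 0. None of the 7 members passed an adjusted p of 0.05, and 0.0216% and 0.130% of the 9253 genes tested passed upward and downward (14 genes, with 1298 at an unadjusted p under 0.05). Gja1 had the lowest adjusted p of the members in limma, with an effect of 0.55 ± 0.10 (SE) and an adjusted p of 0.170, and stood higher in KO on 4 of 4 diets. The limma effect was 0.19 ± 0.06 for Adra1b (adjusted p = 0.307), 0.12 ± 0.05 for Kcnk3 (0.366) and 0.12 ± 0.09 for Kcnj8 (0.609). It was -0.07 ± 0.02 for Cacna1c (0.287), -0.32 ± 0.19 for Kcnmb1 (0.520) and -0.04 ± 0.21 for Abcc9 (0.937). Without the 4M libraries limma called 240 genes but again 0 of the 7 members, with Adra1b at 0.26 (adjusted p = 0.0650), Gja1 at 0.62 (0.0758) and Kcnj8 at 0.21 (0.0996), Kcnmb1 at -0.10 (0.208), and the Abcc9 effect turned to 0.19 (0.292).

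Over the months of diet, 4 of the 7 members fell in KO and 0 rose, by a limma fit of a level and a slope for each genotype with 4 residual degrees of freedom. The same test called 15.7% of all genes lower and 6.80% higher in KO (1455 and 629 genes). With trimmed-mean library factors this split was 1404 lower and 1097 higher. Kcnmb1 fell by 0.35 ± 0.04 (SE) per month (adjusted p = 0.0160), Adra1b by 0.09 ± 0.01 (0.0192), Cacna1c by 0.035 ± 0.006 (0.0241) and Abcc9 by 0.20 ± 0.05 (0.0448), all by limma in mean log2 value. The limma slopes of Kcnk3 (-0.06, adjusted p = 0.0653), Kcnj8 (-0.09, 0.115) and Gja1 (-0.08, 0.174) did not pass. Kcnmb1, Adra1b and Cacna1c were listed at 0 in KO 4M, and this entered the slopes. Without KO 4M, limma called 0 of all genes at an adjusted p of 0.05 and 1537 at an unadjusted p under 0.05, and the slopes were -0.19 for Kcnmb1 (adjusted p = 0.227), -0.06 for Abcc9 (0.753), -0.06 for Adra1b (0.289) and -0.03 for Cacna1c (0.253). It also called 0 genes without the ND libraries (3144 unadjusted) and 0 without the 1M libraries (1974 unadjusted), where the slopes stayed near those of all libraries, at -0.41 and -0.34 for Kcnmb1 and -0.21 and -0.21 for Abcc9.

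In Apoe, limma called 0 of the 7 members and 0 genes in all for the slope per month, with 1165 genes at an unadjusted p under 0.05. The member of lowest adjusted p was again Kcnmb1, with a slope of -0.10 ± 0.04 (adjusted p = 0.403). The difference of slopes, KO minus Apoe, was below 0 for all 7 members, and limma called 0 of them and 0 genes in all, with 1954 at an unadjusted p under 0.05. It was -0.24 ± 0.06 for Kcnmb1, -0.25 ± 0.07 for Abcc9, -0.08 ± 0.02 for Adra1b and -0.02 ± 0.01 for Cacna1c, each with an adjusted p of 0.226 by limma. The fall in KO was therefore not shown to differ from the course in Apoe.

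Within libraries, most members were far more abundant in cells with a UMI of Myh11. In KO 4M, the 205 cells with Myh11 had an Abcc9 level of 61.1 per 1000000 UMIs of the class, against 6.65 in the 1372 cells without. Kcnj8 stood at 33.9 with Myh11 and 7.53 without. Abcc9 in the class with Myh11 stood at 61.1 in KO 4M and 161 in Apoe 4M, with intervals apart. Kcnj8 in this class stood at 33.9 (95% interval 26.9 to 42.2) in KO 4M and 44.7 (40.3 to 49.5) in Apoe 4M, which overlap. The class rests on a single Myh11 UMI, and Myh11 itself stood at 74.4 CPM in KO 4M and 1639 in Apoe 4M. Median UMIs per cell of the class were 9805 in KO 4M and 6963 in Apoe 4M. The classes of these libraries are therefore not matched sets of cells. Gja1 differed less between the classes, at 193 with Myh11 and 153 without in KO 4M, and in Apoe 4M it was lower with Myh11, at 128 against 184 without.

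In KO 2M, the 2149 cells with Myh11 had a Kcnmb1 level of 171 CPM and the 104 cells without had 17.7. Kcnk3 stood at 34.8 with Myh11 and 6.25 without, and Adra1b at 34.1 and 4.16. Gja1, at 271 and 210.3, again had the smallest contrast of the 7. In Apoe 4M, Kcnmb1 stood at 192 in the 1093 cells with Myh11 and at 18.7 in the 142 cells without. Median UMIs per cell were similar in the classes of a library, for example 9805 with Myh11 and 11072 without in KO 4M. No class of Schwann cells, lymphocytes, macrophages or endothelial cells reached 50 cells, so the share that free RNA gives in cells lacking a gene was not measured. Cells with 3 or more fibroblast, chondrocyte or pericyte markers were more numerous, but nothing shows that they lack these genes. In KO 4M all 1577 cells had 3 or more chondrocyte markers, in both Myh11 classes. The split of that library by Myh11 is thus not one of smooth muscle cells against cells with cartilage markers.

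**Figure D3:**
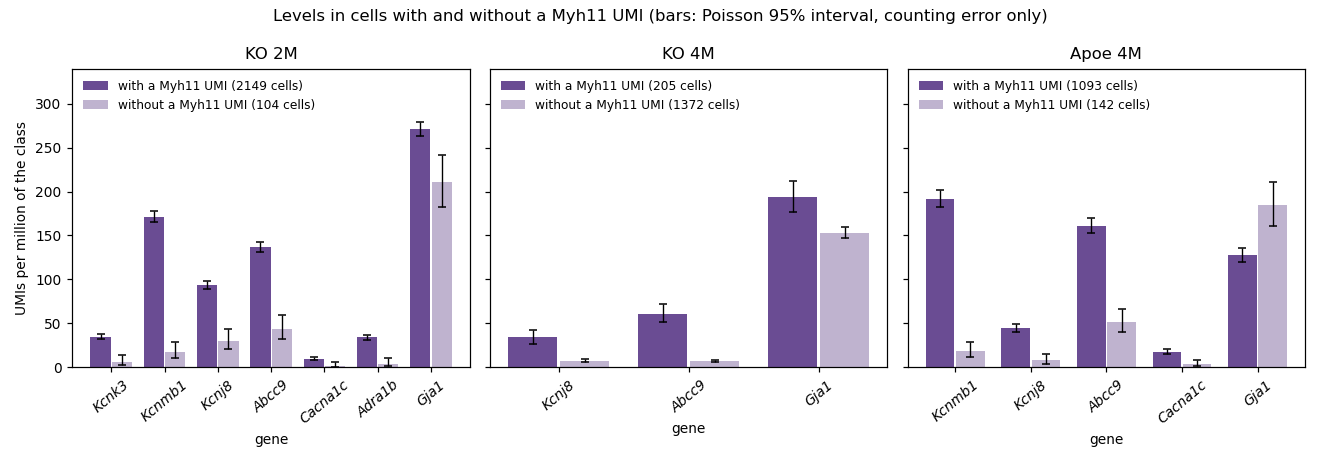
Members in cells with (dark bars) and without (light bars) a UMI of Myh11, in UMIs per 1000000 UMIs of the class, in the 3 libraries where both classes held at least 50 cells. Error bars are exact Poisson 95% intervals for counting error only; Kcnmb1 in Apoe 4M stands at 192 with Myh11 and 18.7 without, whereas Gja1 stands at 128 and 184.

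The members were set among 128 other genes of vascular tone in 7 roles, of which 85 were listed in at least 1 library and 67 were tested. By limma, 33 of the 67 fell per month in KO and 5 had slopes called above 0, against 15.7% and 6.80% of all genes, and 0 passed for the genotype effect, the slope in Apoe or the difference of slopes. The median KO slope was -0.05 in these 67 genes, -0.09 in the 7 members and -0.005 in all 9253 genes. The genes that fell were 4 of 7 potassium channel genes, 7 of 13 for calcium entry and stores, 4 of 12 other channels, 4 of 5 constrictor receptors, 6 of 13 relaxant receptors and cyclic nucleotide enzymes, the 1 connexin tested, and 7 of 16 for signal relay. As for the members, 0 of these calls were left without KO 4M, the ND or the 1M libraries.

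Of those that fell, Atp2a2, the pump that refills the calcium store, stood at 382, 339, 261 and 103 CPM in KO and at 417, 379, 359 and 349 in Apoe. Its limma slope in KO was -0.30 ± 0.02 (adjusted p = 0.00971). Slopes were -0.14 for Atp2b4, a calcium pump of the cell membrane (limma adjusted p = 0.0129), -0.27 for Pde3a, which breaks down cyclic AMP (0.0132), and -0.08 for the cation channel Trpv2 (0.0136). Those that rose were Atp2b1, another calcium pump of the cell membrane (0.36, limma adjusted p = 0.0414), the stretch-gated channel Piezo1 (0.18, 0.0392), the phosphodiesterase Pde1a (0.10, 0.0281) and the ATP-gated channel P2rx4 (0.06, 0.0355). The fifth call is the cation channel Trpv4, which stood at 179 CPM in KO 4M and was listed at 0 in the other 7 libraries. It passed the filter on low values through KO 4M alone, so its slope is no evidence of a rise. Piezo1 stood at 11.2, 13.9, 18.1 and 107 in KO and at 11.2, 11.97, 13.5 and 21.8 in Apoe. Channels of the list thus moved in both directions toward KO 4M, where chondrocyte markers were also highest.

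**Figure D4:**
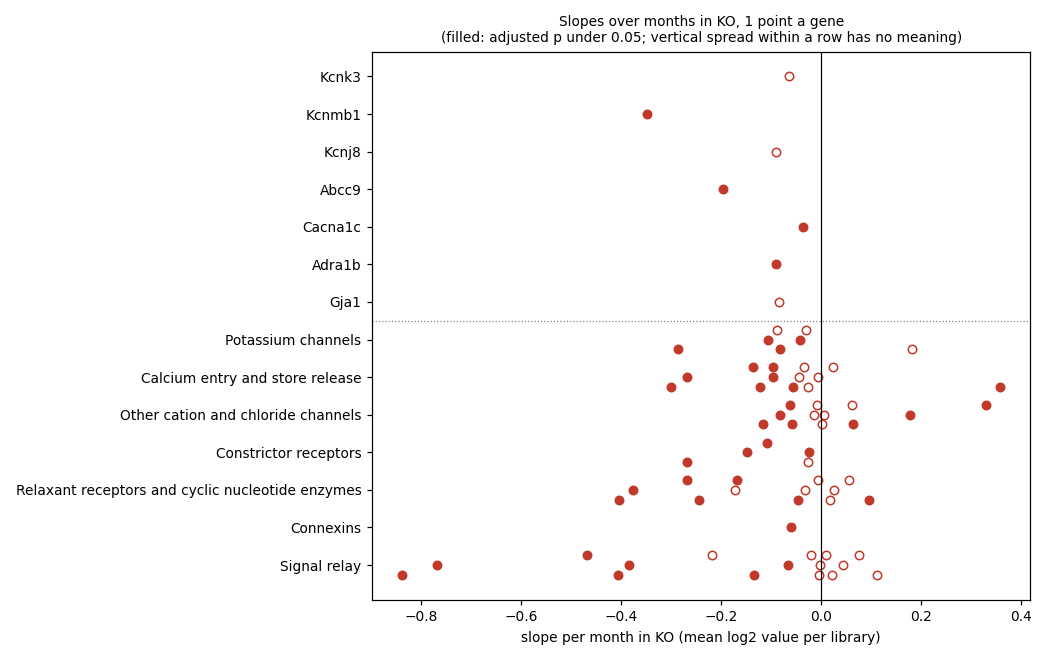
Slope per month in KO of the 7 members (1 row each, above the dotted line) and of the 67 other genes of vascular tone by role, in mean log2 value per library. Filled points passed an adjusted p of 0.05 in limma; 4 members and 33 other genes passed below 0, and 5 other genes passed above 0.

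On single diets up to 2 months the other genes of the list that stood apart by at least 1 were all lower in KO. On ND 0 of 68 were higher and 3 lower by at least 1, namely Rgs5 (-1.48), Htr1b (-1.25) and Rgs4 (-1.06), against 0.749% higher and 1.37% lower of all genes. On 1M the 1 of 65 was Rgs4 (-1.15), against 0.760% and 0.770%. On 2M they were Rgs5 (-1.88), Htr1b (-1.35) and P2ry6 (-1.01) of 65, against 1.16% and 2.17%. Rgs4 and Rgs5 damp signals of G protein-coupled receptors, and Htr1b and P2ry6 are receptors for serotonin and uridine nucleotides. Rgs5, also a pericyte marker, stood at 104, 138, 55.1 and 34.4 CPM in KO and at 294, 227, 205 and 189 in Apoe. All 4 KO levels of Rgs5 lay below all 4 Apoe levels. The 8 fixed pericyte markers, Rgs5 among them, summed to 365, 343, 310 and 964 CPM in KO from ND to 4M, and to 594, 501, 478 and 560 in Apoe. The sum was thus lower in KO on ND, 1M and 2M and higher on 4M. In each library 5 of 8 were listed, with Ndufa4l2 in place of Notch3 in KO 4M.

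On 4M, 5 of 50 genes of the list stood higher in KO by at least 1 and 24 lower, against 6.59% and 17.0% of all genes, with a median of -0.76 against -0.24 for all genes. The lowest were Ppp1r14a (-4.46), which inhibits myosin phosphatase, Mylk (-4.13), the kinase that activates myosin, and Gucy1b1 (-4.09), a subunit of the nitric oxide receptor. The highest were Piezo1 (2.24), Atp2b1 (1.80) and Pde4d (1.71), a phosphodiesterase of cyclic AMP. Of 67 genes of the list with values in Apoe 4M, 17 were listed at 0 in KO 4M, as were Kcnmb1 and Cacna1c among the members.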

How the data were processed

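The 8 libraries are in 6 deposited tables, 1 per genotype over time and 1 per diet. The authors deposited log2 values, scaled cell by cell with trimmed-mean (TMM) factors, per the file names. Tools named by the submitters' processing notes are STAR, featureCounts, UMI-tools and Subread 1.6.0, and the build is GRCm38. The order of these steps and the use of strand are not given in the sources used here. Each library was in 2 tables, which agreed except for 1 gene (Tgfbr2) and were scaled separately. Genotypes were therefore compared in diet tables and slopes taken in time tables.

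Whole UMIs were recovered by undoing the log2 and dividing by the smallest linear value of each cell, and 100% of 74286140 entries came out whole (tolerance 0.01). These were summed per library. Shares have exact Clopper-Pearson 95% intervals. Of 11447 identifiers, 11439 matched a symbol in GENCODE vM21, also the source of coordinates. No cell was removed, the lowest having 2905 UMIs, and no doublet caller was run.

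Mean log2 values per library, zeros included, were compared by limma (version 3.58.1, R 4.3.3) for the 9253 genes with a mean share of cells of 5% or more, with Benjamini-Hochberg adjustment and a threshold of 0.05. The fits were also run on simulated library means, with noise set mostly below the spread within a genotype. The simulation had no listing at 0 and no library set apart as KO 4M is. It therefore does not vouch for the calls made here. Cells were never replicates, and p-values measure the spread of libraries around the model. With 1 library a group, an interaction of diet and genotype cannot be told apart from that spread, nor months of diet from age. A single-diet difference has a pseudocount of 1 and no test.

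The members and the lists of other genes and markers were chosen with earlier results of these data known. All members are named. Of other genes, those named are the 5 of lowest adjusted p in each direction per fit and the 3 highest and 3 lowest differences of at least 1 per diet. One of these is not reported here. Kcnma1, Npy1r and Gjc1 were named after their values were seen. Alternatives were another scale, pseudocount, library scaling, filter, depth, table, time scale, cell set and set of libraries.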

Additional observations from a re-analysis of the deposited data

How the results depend on the processing

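No paired analysis was possible because each group had 1 library, so groups share fewer than 2 replicate numbers; the genotype fit compares libraries within diets through its diet factor. The count of genes called for the genotype effect was 14, and 5 with CPM plus 1, 0 with plus 10 (1188 at an unadjusted p under 0.05 in limma) and 4 with trimmed-mean factors, none of them among the 14; it ranged from 0 to 240 when the libraries of a diet were left out. The count for the slope in KO was 2084, and 726 with thinned cells, 87 with the rank of time, and 0 to 3060 when libraries were left out. Counts ranged from 0 to 1 for the slope in Apoe and from 0 to 7 for the difference of slopes when libraries were left out. Leaving out libraries turned directions only without the 4M libraries or KO 4M alone: over those fits the genotype effect of Abcc9 ranged from -0.17 to 0.19, the KO slope of Kcnj8 from -0.13 to 0.0514, the Apoe slopes of Kcnk3 from -0.0225 to 0.00133, of Abcc9 from -0.0297 to 0.0617 and of Adra1b from -0.0129 to 0.00485, and the difference of slopes of Kcnj8 from -0.13 to 0.0931 (0.0606 without KO 4M alone). The Apoe slope of Kcnj8 turned to 0.0109 with plus 1, 0.00894 with plus 10 and 0.0192 with trimmed-mean factors. The cause was not tested. Among members called for the KO slope, limma lost Abcc9 (adjusted p = 0.0781) and Cacna1c (0.0609) with thinned cells, Adra1b with plus 1 (0.0762) and with trimmed-mean factors (0.0749), and all 4 with the rank of time (0.0761 to 0.137). It gained Kcnk3 (0.0496) with plus 10, and Kcnk3 (0.0390) and Kcnj8 (0.0231) without the 2M libraries. Over all settings and members, 62 KO slopes kept direction and side of the threshold, 24 lost it, 3 gained it and 2 turned direction; for the genotype effect 76 kept both and 1 turned. Removing cells with macrophage markers moved no member level by more than 1.39%. Depth limits genes near 5% of cells, such as Kcnk3 and Adra1b in Apoe.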

Other observations

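Splitting cells by a UMI of the cartilage collagen gene Col2a1 gave smaller contrasts than splitting them by Myh11. In KO 2M, the 383 cells with Col2a1 had 127 Kcnmb1 UMIs per 1000000 UMIs of the class, against 173 in the 1870 cells without. Kcnj8 stood at 66.6 with Col2a1 and 96.7 without, and Adra1b at 24.4 and 34.6. In Apoe 4M, 452 cells with Col2a1 and 783 without stood at 127 and 162 for Abcc9, and at 134 and 135 for Gja1. A class here rests on a single Col2a1 UMI, and the share that free RNA gives was not measured.

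Of the 7994 genes listed in all 8 libraries, those whose log2(CPM + 1) ran closest to Kcnj8 were Sgce (Pearson r = 0.995), Cript (0.994) and Psme1 (0.994). Closest to Abcc9 were Gm42640 (0.994), Gnai2 (0.988) and Atp5k (0.988), and closest to Gja1 were Asrgl1 (0.973), Emp3 (0.965) and Lsm4 (0.964). The r between Kcnj8 and Abcc9 themselves was 0.879, and that between Gja1 and each of them was 0.458 for Kcnj8 and 0.147 for Abcc9. These are descriptions over 8 libraries, of which KO 4M stands apart, so that the values for Kcnj8 and Abcc9 share that library as an extreme point.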
